A study of Mus musculus with 9 samples.

Results

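The genes described here are those of the ATF4 integrated stress and amino acid response: the kinases at its head, ATF4 and its partner transcription factors, the feedback genes they switch on, and the enzymes and tRNA synthetases they maintain. The members were taken from a list of 35 pathway genes wherever the list's symbol was a row name of the deposited expression table, and 34 of the 35 were found among its 12339 genes. Stc2 was not analysed here. By role the 34 were 2 kinases, 6 transcription factors, 7 feedback and effector genes, 8 enzymes of amino acid and one-carbon metabolism, and 11 cytosolic tRNA synthetases. Their total reads over the 9 libraries were 922 or more, and all 34 passed the filter on low values.

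RNA was sequenced from mouse KP-GFP tumour cells of strain C57BL/6 that had been grown for 7 days as spheroids. KP is the labels' name for the tumour line, for which they give no alleles, and GFP is the fluorescent protein by which the tumour cells were sorted out of the digested spheroids. In the group called alone, 2500 tumour cells were seeded per well and nothing was added. In the group with TRMs, 5000 lung tissue-resident macrophages, that is alveolar macrophages, were mixed with the same number of tumour cells, and in the group with monocytes 5000 bone-marrow monocytes were added instead. Each group had 3 libraries, each condition was a pool of 32 spheroids, and all 3 groups shared the KP-GFP cells, the dissociation and the sort. The design asks how each kind of macrophage acts directly on the tumour cells. The labels do not say whether the 3 libraries of a group came from separate cultures, so the p-values measure the spread between these libraries, which may be technical.

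The integrated stress response starts when kinases such as PERK (Eif2ak3), which senses unfolded protein in the endoplasmic reticulum, or GCN2 (Eif2ak4), which senses uncharged tRNA, phosphorylate the translation factor eIF2. Most translation then falls while that of the Atf4 mRNA rises, and the ATF4 protein induces amino acid transporters, serine and asparagine synthesis, tRNA synthetases and its own brakes. ATF4 is controlled largely at translation, so its mRNA is only a partial readout of its activity, and its target genes are the usual one. In tumours the pathway is known for supporting growth when amino acids are scarce.

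ATF4 binds as a heterodimer with C/EBP proteins at a composite element, whose 8-letter core TGATGNAA was searched on both strands from 250 bases before to 50 after each gene's start in the RefSeq promoters of mouse build GRCm38.p6. Of the 29 members with an entry, 11 held a match: Aars, Asns, Chac1, Gars, Iars, Nupr1, Pycr1, Tars, Trib3, Vldlr and Yars. The share was 2.84% among the 9775 genes of the expression table with an entry and 3.97% among all 32851 promoters. Eif4ebp1, Cars, Lars, Nars and Wars had no entry. The 4 stretches below are printed 5′ to 3′ on the gene's strand with the matched letters in capitals. Chac1 and Vldlr are shown because they changed between the groups, and Asns and Pycr1 were chosen after their values were seen, as genes that were high in 1 library described below. A match is a description of letters, not a bound site.
Chac1, chr2:119351023-119351082, plus strand, 193 to 186 bases before the start and outside annotated genes: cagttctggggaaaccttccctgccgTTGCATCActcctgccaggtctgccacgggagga
Vldlr, chr19:27216809-27216838, plus strand, 200 to 193 bases before the start, in an annotated Vldlr exon: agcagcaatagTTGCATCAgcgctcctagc
Asns, chr6:7693214-7693243, minus strand, 23 to 16 bases before the start, in an annotated Asns UTR: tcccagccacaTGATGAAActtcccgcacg
Pycr1, chr11:120643818-120643877, minus strand, 103 to 96 bases before the start and outside annotated genes: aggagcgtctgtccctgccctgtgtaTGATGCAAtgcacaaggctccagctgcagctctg
The stretches of Chac1 and Vldlr carry the core on the opposite strand, as TTGCATCA.

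The deposited values are counts per 1e6 reads with 0.5 read added to each gene, called CPM below. Summed over the genes of the expression table, the libraries held 16001895 to 32771448 reads. Of 7 epithelial markers, the 5 in the table (Epcam, Cdh1, Krt8, Krt18, Krt19) summed to 12166 to 13712 CPM alone, 12313 to 14871 CPM with TRMs and 8701 to 13344 CPM with monocytes, whereas the lung-lineage markers Nkx2-1 and Sftpc were not in the table. Of 20 macrophage and monocyte markers, 13 were in the table and summed to 160 to 248 CPM alone, 176 to 319 CPM with TRMs and 185 to 248 CPM with monocytes. Most of that sum was Cd14, and the mean of the pan-leukocyte gene Ptprc was 1.93 CPM alone, 1.95 CPM with TRMs and 0.241 CPM with monocytes. The macrophage genes Mrc1 and F13a1 were higher in both co-cultures, with mean Mrc1 going from 5.12 CPM alone to 32.9 CPM with TRMs and 39.2 CPM with monocytes. Other markers of the list did not all go this way. Without alone replicate 2, a library described below, Csf1r was 2.26-fold higher with TRMs (adjusted p = 0.0478 by limma). In the same fit Chil3 was 10.0-fold lower with monocytes (adjusted p = 0.0271 by limma). Cd14, also in the fit without alone replicate 2, had log2 changes of -0.73 with TRMs and -0.72 with monocytes, neither called. The part of carried-over macrophage RNA in the results on the members was not tested. In bulk samples such as these, a change in the share of cells that express a gene and a change in RNA per cell cannot be told apart.

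A single library stood furthest apart for these genes and touches every comparison with tumour cells grown alone. In alone replicate 2, 27 of the 34 members had their highest value of all 9 libraries, against 12% of all genes. The library exceeded both other libraries of its group for 29 members, against 38.6% of all genes, and exceeded their mean by more than 2-fold for 15 members, against 2.59% of all genes. The median member stood 1.91-fold above the mean of alone replicates 1 and 3, while the median of all genes was 0.99-fold. Alone replicates 1 and 3 were close to each other, with a median fold of 1.16 between them over the members and 1.14 over all genes. Other libraries departed less from their groups. Alone replicate 3 was below both others for 23 members, against 25.6% of all genes. TRM replicate 2 was above both others for 24 members (29.2% of all genes), with a median ratio of 1.14. TRM replicate 3 was below both others for 21 members (34.5% of all genes), with a median ratio of 0.89. The share of mitochondrial RNA in alone replicate 2 was 0.646%, within the range of 0.288 to 0.667% over the 9 libraries, and its summed macrophage markers, 160 CPM, were the lowest of the 9.

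**Figure D1:**
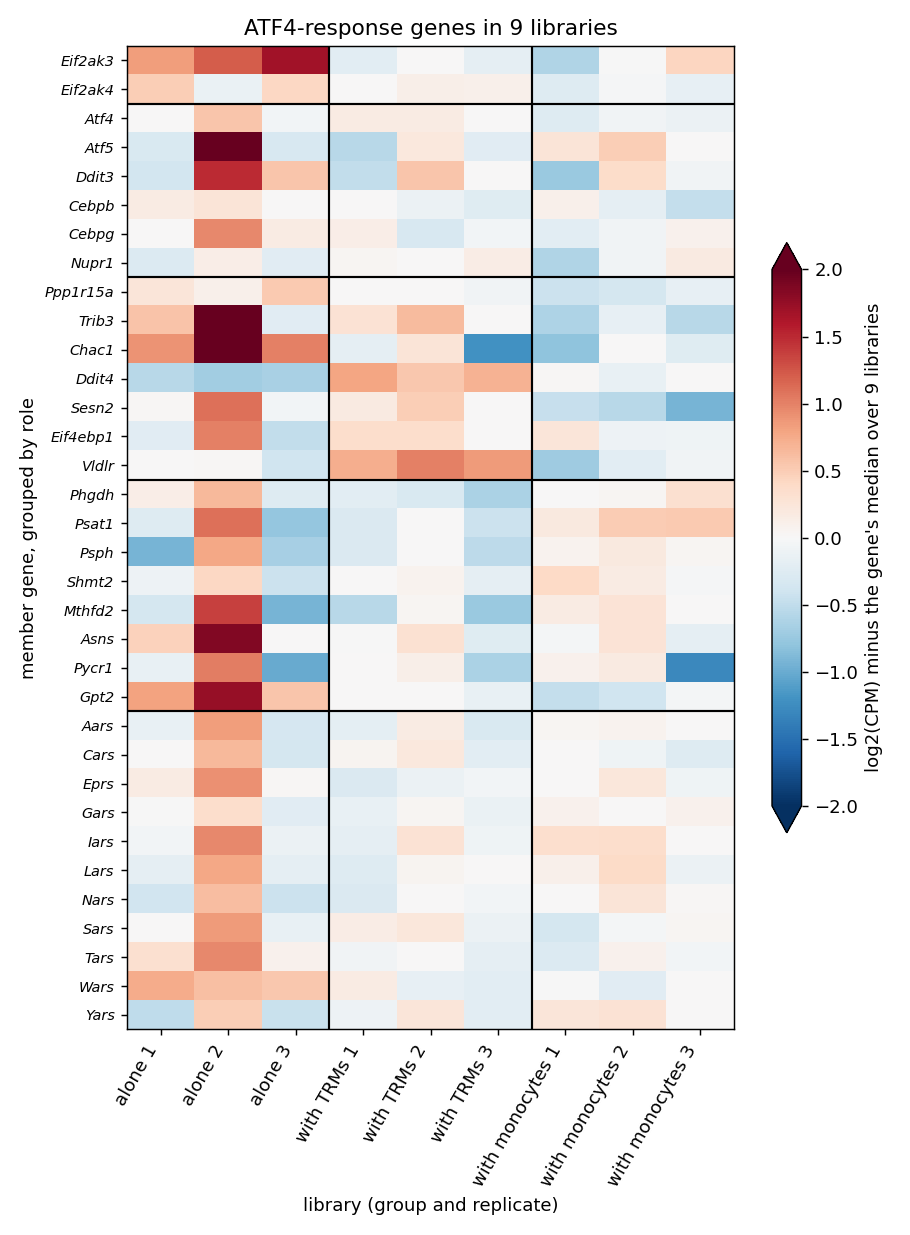
Each cell gives the log2 CPM of a member (vertical axis, grouped by role) in a library (horizontal axis) minus that gene's median over the 9 libraries, with red higher and blue lower. The column of alone replicate 2 is red for most enzymes, feedback genes and synthetases, and is the highest of 9 for 27 of 34 members.

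The elevation of alone replicate 2 was uneven over the roles. All 8 metabolic enzymes were above both other alone libraries, with a median ratio of 2.92. Asparagine synthetase (Asns), which makes asparagine from aspartate, was at 145, 379 and 105 CPM in alone replicates 1 to 3, and Mthfd2, a mitochondrial folate enzyme, was at 47.7, 157 and 31.8 CPM. Psat1 and Psph, which carry out the later steps of serine synthesis, stood 3.00-fold and 2.94-fold above the mean of the other alone libraries, and Pycr1, which makes proline, 2.89-fold. Phgdh, the entry enzyme of serine synthesis, and Shmt2, which moves a carbon from serine to folate, stood 1.61-fold and 1.59-fold above. Among the synthetases, 10 of 11 were above both other alone libraries, with a median ratio of 1.89, led by Aars at 2.11, Iars at 2.07 and Nars at 2.02. The exception was Wars, the tryptophan enzyme, which interferon is known to induce, at 0.967.

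Feedback genes and transcription factors were divided in alone replicate 2. Trib3, a pseudokinase that restrains ATF4, was at 44.8, 231 and 25.7 CPM, a ratio of 6.55. Atf5, a related transcription factor, was at 2.57, 16.7 and 2.54 CPM, a ratio of 6.54 at a low level. Eif4ebp1, a repressor of cap-dependent translation, stood 2.57-fold above the other 2 libraries, Chac1, which degrades glutathione, 2.51-fold, Ddit3 (CHOP), a pro-apoptotic factor, 2.5-fold, and Sesn2, which inhibits mTORC1 when leucine is low, 2.15-fold. Atf4 itself, at 400, 586 and 384 CPM, had a ratio of 1.49, Cebpg 1.84, Nupr1 1.30 and Cebpb 1.13. The members that were not raised there were Ppp1r15a (GADD34), which brings the phosphatase to eIF2, at 0.817, Ddit4 (REDD1), an mTORC1 inhibitor, at 0.932, Eif2ak3 at 0.926 and Eif2ak4 at 0.666.

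Other gene lists of the same or nearby pathways placed the elevation. Of 23 other ATF4 targets in the table, 18 were above both other alone libraries and 10 by more than 2-fold, with a median ratio of 1.91. The cystine transporter Slc7a11 was at 75.6, 434 and 88.1 CPM in alone replicates 1 to 3, and the mitochondrial folate dehydrogenase Aldh1l2 at 0.469, 5.19 and 0.646 CPM, a ratio of 9.31 at a very low level. These 2 genes were named after their values were seen. The 15 genes of the IRE1 and ATF6 arms, the branches of the unfolded protein response that do not run through ATF4, had a median ratio of 1.42 with 13 of 15 above both others and 0 above by more than 2-fold. The median ratio was 1.14 for 14 genes of the eIF2 machinery, 1.18 for 12 other cytosolic synthetase complex genes and 0.95 for 17 mitochondrial synthetases. Of the members with a promoter entry, 13 were more than 2-fold above in alone replicate 2 and 6 of these held the element, compared with 5 of the 16 below that fold.

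**Figure D2:**
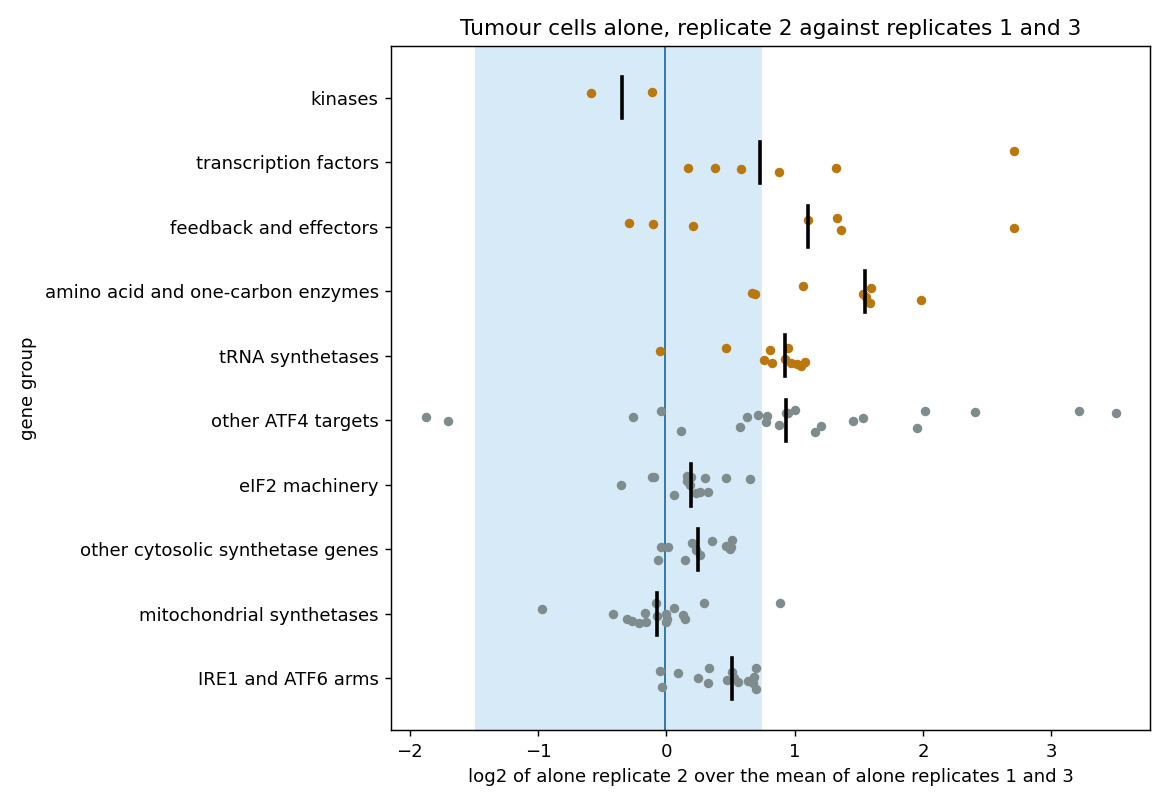
Points are genes, placed on the horizontal axis by the log2 ratio of alone replicate 2 to the mean of alone replicates 1 and 3, with members in brown, genes of the comparison lists in grey and black bars for the median of each group. The blue line is the median of all genes and the shaded band runs from their 5th to their 95th percentile. Most enzymes, many synthetases and many other ATF4 targets lie beyond the band. The enzymes Phgdh and Shmt2 lie inside it, as do most mitochondrial synthetases.

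Within the alone group the members therefore varied more than other genes. The median SD of log2 CPM over the 3 libraries was 0.54 for the members and 0.21 for all genes. With TRMs it was 0.20 against 0.22, and with monocytes 0.19 against 0.28. The results below are from all 9 libraries, and values without alone replicate 2 follow where leaving it out ended or added a call or changed a count of calls. That library is singled out because these same members were high in it. Calls gained by leaving it out therefore rest on the same values and are given as description.

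With TRMs, 2 members rose and 4 fell, and 28 did not pass an adjusted p of 0.05 (limma on log2 CPM, Benjamini-Hochberg over 12326 genes). Over all genes tested, 10.2% were higher and 8.15% lower by the same rule, so the number of members called was near the background in each direction. Ddit4 and Vldlr rose, and Eif2ak3, Chac1, Gpt2 and Wars fell. The libraries with TRMs lay wholly above the alone libraries for 2 members, the same pair, where 20.8% of all genes did so. For 8 members they lay wholly below, where 18.5% of all genes did so, namely for Cebpb, Chac1, Eif2ak3, Eprs, Gpt2, Ppp1r15a, Tars and Wars. The median log2 change of the members was -0.24, against -0.00 for all genes. Without alone replicate 2 the median was 0.13, with 3 members higher and 4 lower, and the background was then 9.49% higher and 6.98% lower. Without alone replicate 3, 8 members were lower, the same 4 with Phgdh, Asns, Eprs and Tars. At an unadjusted p under 0.05 there were 11 members, 9 of them lower, against 31.2% of all genes.

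With monocytes, 1 member rose and 6 fell, and 27 did not pass. The background was 14.7% of genes higher and 12.7% lower. Ddit4 rose, and Eif2ak3, Chac1, Gpt2, Wars, Ppp1r15a and Sesn2 fell. The monocyte libraries lay wholly above the alone libraries for 1 member (Ddit4), where 21.2% of all genes did so, and wholly below for 8 (Atf4, Chac1, Eif2ak3, Gpt2, Ppp1r15a, Sesn2, Tars and Wars), where 19.2% did so. The median log2 change was -0.31 with all 9 libraries and 0.01 without alone replicate 2, when 6 members were higher against 13.9% of genes and 7 lower against 11.5%. Without alone replicate 3, 9 members were lower, the added ones being Asns, Trib3 and Tars. The comparisons with TRMs and with monocytes share the alone libraries, so values that appear in both are not independent of each other.

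The mRNA of the kinase PERK was lower in both co-cultures. Eif2ak3 was at 97.6, 126 and 175 CPM alone, 47.4, 54.7 and 48.5 CPM with TRMs and 36.1, 54.3 and 73.7 CPM with monocytes. No co-culture library reached the lowest alone library, and alone replicate 2 lay in the middle of its group. The mean fell from 133 ± 39.1 CPM (SD, n = 3) alone to 50.2 ± 3.91 CPM with TRMs, 2.58-fold lower (log2 change -1.37, SE 0.25, adjusted p = 0.00195 by limma), and to 54.7 ± 18.8 CPM with monocytes, 2.46-fold lower (log2 change -1.30, adjusted p = 0.00178 by limma). Eif2ak4, the amino acid sensor GCN2, was at 52.4, 34.1 and 49.9 CPM alone, 37.4 to 40.5 CPM with TRMs and 31.4 to 36.9 CPM with monocytes. It did not pass in either comparison with all libraries (adjusted p = 0.536 and 0.117 by limma), and without alone replicate 2 it was 1.51-fold lower with monocytes (adjusted p = 0.0183 by limma).

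None of the 6 transcription factors passed in any comparison by limma on the group means of all 9 libraries. Atf4 was at 445, 444 and 398 CPM with TRMs and 334, 379 and 367 CPM with monocytes, beside 400, 586 and 384 CPM alone. All 3 values with monocytes lay below all 3 alone, but the fitted log2 change of -0.32 did not pass (adjusted p = 0.158 by limma), and it was -0.13 without alone replicate 2. With TRMs the change was -0.06 (adjusted p = 0.824 by limma). Ddit3, at 20.9, 75.9 and 39.9 CPM alone, was at 19.3 to 39.7 CPM with TRMs and 16.2 to 34.9 CPM with monocytes, and its groups overlapped. Its log2 change with monocytes was -0.71 (adjusted p = 0.221 by limma), and it was -1.17 without alone replicate 1 (adjusted p = 0.0405 by limma). Cebpb, a C/EBP factor that pairs with ATF4, was at 289 to 344 CPM alone and 243 to 286 CPM with TRMs, without overlap but with adjusted p = 0.259 by limma. With monocytes its log2 change was -0.33 (adjusted p = 0.127 by limma), and -0.48 without monocyte replicate 1 (adjusted p = 0.0324 by limma). Cebpg, another partner, Atf5 and Nupr1, a small stress-induced chromatin protein, had adjusted p-values of 0.159 or more in both comparisons by limma.

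Levels of different genes can be compared per kilobase of annotated exon (GENCODE M21, GRCm38). In tumour cells alone Cebpb stood at 212 ± 18.5 CPM per kilobase, Ppp1r15a at 209 ± 31.9 and Atf4 at 194 ± 47.6 (SD, n = 3), and these 3 did not differ beyond their spread. At the other end of the factors, Atf5 was at 3.64 ± 4.10 CPM per kilobase, with alone replicate 2 supplying most of its spread.

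Ddit4 had the lowest adjusted p of the members with TRMs and was the member that rose in both co-cultures. It was at 69.2, 62.6 and 65.0 CPM alone, 175, 148 and 164 CPM with TRMs and 103, 92.1 and 102 CPM with monocytes. The 3 groups did not overlap at all, with the alone libraries lowest and the TRM libraries highest. It rose 2.47-fold with TRMs (log2 change 1.30, SE 0.13, adjusted p = 2.87e-05 by limma) and 1.51-fold with monocytes (log2 change 0.59, adjusted p = 0.00417 by limma). Besides ATF4, hypoxia and glucocorticoids are known inducers of Ddit4.

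Vldlr, a receptor for triglyceride-rich lipoproteins, rose with TRMs and did not pass the test with monocytes. It was at 34.6, 35.3 and 26.3 CPM alone, 57.2, 69.3 and 62.6 CPM with TRMs and 21.2, 29.8 and 33.1 CPM with monocytes. Every TRM library lay above every other library, while the alone and monocyte libraries overlapped. The rise with TRMs was 1.98-fold (log2 change 0.98, SE 0.19, adjusted p = 0.0035 by limma). With monocytes the fold was between 0.649 and 1.16 (95% interval) with adjusted p = 0.467 by limma, and the direct test between the co-cultures is given below.

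Chac1 fell in both co-cultures. It was at 22, 57.4 and 23.8 CPM alone, 10.4, 14.1 and 5.11 CPM with TRMs and 6.78, 11.8 and 9.99 CPM with monocytes. All 6 co-culture libraries lay below all 3 alone libraries, and the call did not depend on the high one. With TRMs it was 3.43-fold lower (log2 change -1.78, SE 0.41, adjusted p = 0.00829 by limma) and with monocytes 3.35-fold lower (adjusted p = 0.0065 by limma). Without alone replicate 2 the falls were 2.53-fold (adjusted p = 0.0335 by limma) and 2.47-fold (adjusted p = 0.0270 by limma).

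A further pair of brakes on stress signalling, Ppp1r15a and Sesn2, were called with monocytes and not with TRMs. Ppp1r15a was at 590, 534 and 717 CPM alone, 500, 500 and 477 CPM with TRMs and 373, 390 and 444 CPM with monocytes, so that the groups followed each other downward without overlap. It was 1.52-fold lower with monocytes (adjusted p = 0.00582 by limma), and its log2 change with TRMs was -0.31 (adjusted p = 0.144 by limma). Sesn2 was at 37.1, 77.6 and 35 CPM alone, 41.1, 51.2 and 36.3 CPM with TRMs and 26.2, 24.8 and 19 CPM with monocytes, 2.01-fold lower with monocytes (adjusted p = 0.0138 by limma) and with a log2 change of -0.13 with TRMs (adjusted p = 0.786 by limma). Without alone replicate 2 Sesn2 was 1.56-fold lower with monocytes (adjusted p = 0.0406 by limma). The direct tests between the co-cultures did not pass for either gene (adjusted p = 0.434 for Ppp1r15a and 0.19 for Sesn2 by limma). Trib3 was at 36.9, 46.9 and 30.2 CPM with TRMs and 19.8, 26.9 and 20.6 CPM with monocytes, and did not pass against its widely spread alone group (adjusted p = 0.367 and 0.054 by limma). With monocytes it was called lower by edgeR (adjusted p = 0.0174), by DESeq2 (adjusted p = 0.0222) and with scaling by library totals (adjusted p = 0.0459). Eif4ebp1, at 84.5, 199 and 70.3 CPM alone and 98.7 to 126 CPM with TRMs, did not pass with all libraries (adjusted p = 0.797 by limma) and was 1.51-fold higher with TRMs without alone replicate 2 (adjusted p = 0.0365 by limma).

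**Figure D3:**
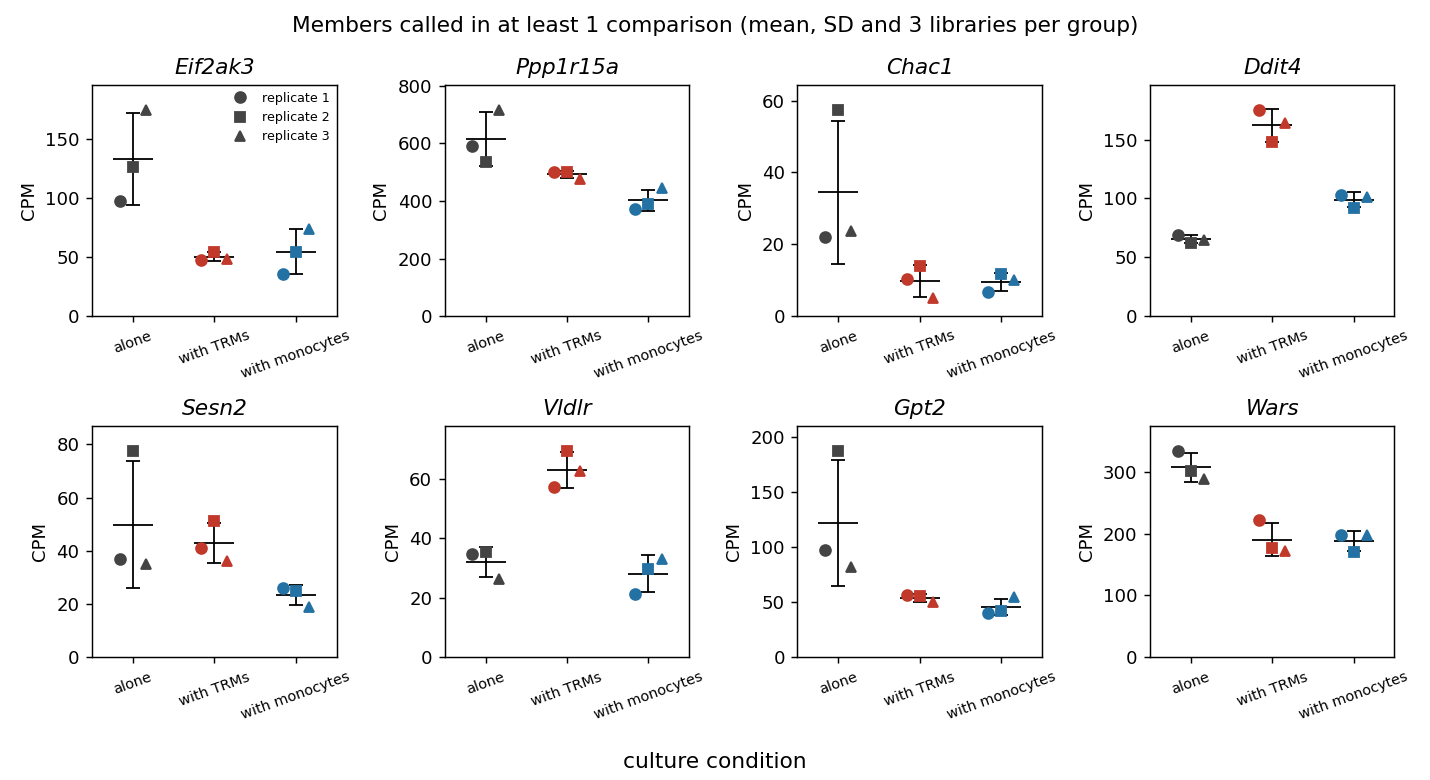
Panels show the 8 members called in at least 1 comparison, with CPM on the vertical axis from 0, the culture condition on the horizontal axis, a marker for each library and a bar for the mean and SD. Eif2ak3, Chac1, Gpt2 and Wars are lower in both co-cultures, Ddit4 is higher in both, Vldlr is higher with TRMs, and the square marking replicate 2 is the high one for Chac1, Sesn2 and Gpt2 alone.

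Among the 8 enzymes, Gpt2 fell in both co-cultures and the other 7 did not pass by limma on the group means of all libraries. Gpt2, the mitochondrial alanine aminotransferase, was at 97.4, 188 and 81.7 CPM alone, 56.4, 55.9 and 50.2 CPM with TRMs and 40.3, 42.4 and 54.5 CPM with monocytes. All 6 co-culture values lay below the lowest alone value. It was 2.11-fold lower with TRMs (adjusted p = 0.00839 by limma) and 2.52-fold lower with monocytes (adjusted p = 0.0016 by limma), and 1.65-fold and 1.97-fold lower without alone replicate 2 (adjusted p = 0.0150 and 0.0020 by limma).

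For the serine and one-carbon enzymes, alone replicate 2 decided what was called with monocytes. Psat1 was at 54.3, 138 and 38.0 CPM alone, 53.0, 64.7 and 47.9 CPM with TRMs and 74.0, 92.2 and 92.7 CPM with monocytes, so the monocyte libraries lay above alone replicates 1 and 3 and below replicate 2. Its log2 change with monocytes was 0.38 with all libraries (adjusted p = 0.433 by limma) and it was 1.89-fold higher without alone replicate 2 (adjusted p = 0.00582 by limma). Psph, at 12.7, 41.0 and 15.1 CPM alone and 24.8 to 27.5 CPM with monocytes, and Mthfd2, at 60.9 to 73.3 CPM with monocytes, had the same arrangement. Psph was 1.86-fold (adjusted p = 0.00992 by limma) and Mthfd2 1.73-fold (adjusted p = 0.0303 by limma) higher without that library, and with all libraries their adjusted p-values were 0.444 and 0.863. Exons of Psph overlap those of Cct6a on the opposite strand by 452 bases, and no source used here says that the counting used strand, so reads of the 2 genes cannot be told apart there. The same holds for Cebpb and Tmem189 over 312 bases, Eif2ak3 and the predicted gene Gm43292 over 221 bases, Cars and the predicted gene Gm15580 over 211 bases, Atf5 and both Nup62 and Il4i1 over 82 bases, and Ddit3 and Mars over 68 bases. Aars overlaps Exosc6 on the same strand over 1326 bases, and Cebpg overlaps the predicted gene Gm44836 likewise over 73 bases, so reads there cannot be told apart even with strand. The remaining overlaps between members and other genes were 77 bases or fewer.

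The remaining enzymes were not called. Asns, at 105, 130 and 89.1 CPM with TRMs and 102, 127 and 92.8 CPM with monocytes, had log2 changes of -0.75 and -0.76 with all libraries (adjusted p = 0.153 and 0.121 by limma), and -0.21 and -0.22 without alone replicate 2. Phgdh, at 330, 469 and 252 CPM alone, was at 261, 243 and 194 CPM with TRMs (adjusted p = 0.0719 by limma, and 0.0219 by DESeq2 and 0.0403 with scaling by library totals, which are both calls). It was at 301, 308 and 376 CPM with monocytes, above every TRM library. Shmt2 and Pycr1 overlapped between alone and each co-culture, with adjusted p-values of 0.419 or more by limma.

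Of the 11 cytosolic tRNA synthetases, which attach amino acids to their tRNAs, only Wars was called by limma on the group means of all libraries. Wars was at 333, 300 and 288 CPM alone, 222, 177 and 172 CPM with TRMs and 197, 169 and 198 CPM with monocytes. The alone libraries were tightly grouped and lay above all 6 others. It was 1.62-fold lower with TRMs (log2 change -0.70, SE 0.14, adjusted p = 0.00344 by limma) and 1.63-fold lower with monocytes (adjusted p = 0.00219 by limma). The other 10 were not called. Of these, Yars had a positive fitted change with TRMs, and Gars, Nars and Yars had one with monocytes.

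The threonine and glutamate-proline enzymes came nearest to a call among the rest. Tars was at 231, 363 and 197 CPM alone, 177, 186 and 165 CPM with TRMs and 155, 197 and 179 CPM with monocytes, with adjusted p = 0.07 and 0.0534 by limma. By DESeq2 it was called lower in both comparisons (adjusted p = 0.0197 and 0.0146), as it was with scaling by library totals (adjusted p = 0.0362 and 0.0357), and by edgeR with monocytes (adjusted p = 0.0473). Eprs was at 193 to 359 CPM alone and 155 to 184 CPM with TRMs, below every alone library, with adjusted p = 0.0868 by limma, 0.0282 by DESeq2 and 0.0456 with scaling by library totals. Without alone replicate 2, Yars was 1.56-fold (adjusted p = 0.0160 by limma) and Nars 1.42-fold (adjusted p = 0.0267 by limma) higher with monocytes. Aars, Cars, Gars, Iars, Lars and Sars did not pass in any comparison with or without that library.

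**Figure D4:**
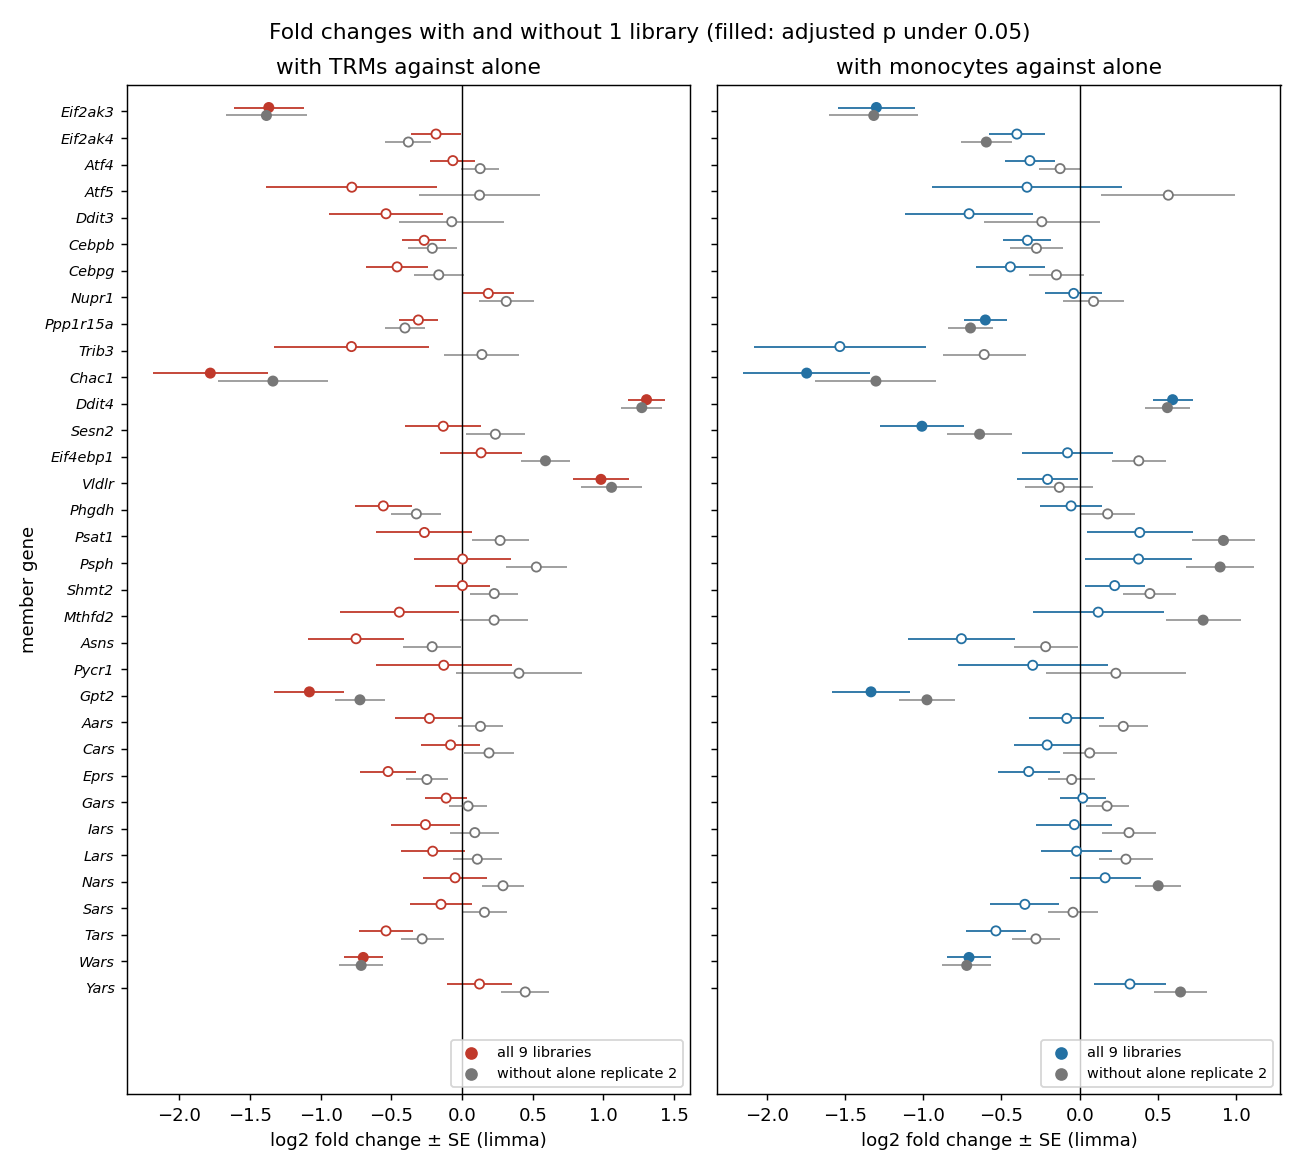
Points give the log2 fold change of each member (vertical axis) with TRMs (left) and with monocytes (right) against tumour cells alone, with SE bars, from all 9 libraries (coloured) and without alone replicate 2 (grey), filled where the adjusted p was under 0.05. Leaving out the library moves most enzymes and synthetases to the right, and Eif2ak3, Ddit4, Vldlr and Wars hardly move.

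Between the co-cultures, 2 members were higher with TRMs than with monocytes, against 0.325% of genes, and 0 were lower, against 0.073% of genes, by limma. The count of lower members was also 0 by edgeR and by DESeq2. Without alone replicate 2 the counts were again 2 and 0, against 0.479% and 0.308% of genes. At an unadjusted p under 0.05 there were 4 members, 1 of them lower, against 11.7% of all genes. Vldlr was 2.28-fold higher with TRMs (log2 difference 1.19, adjusted p = 0.0241 by limma) and Ddit4 1.64-fold higher (log2 difference 0.71, adjusted p = 0.0363 by limma). For both genes the 3 TRM libraries lay above the 3 monocyte libraries. The call for Vldlr was lost without any 1 of the 3 TRM libraries or of monocyte replicates 1 and 2 (adjusted p up to 0.131 by limma), and that for Ddit4 without any 1 of these or of alone replicates 1 and 3 (adjusted p up to 0.142 by limma). The TRM libraries lay wholly above the monocyte libraries for 7 members (Atf4, Ddit4, Eif2ak4, Ppp1r15a, Sesn2, Trib3 and Vldlr), where 7.56% of all genes did so. They lay wholly below for 4 members, the 3 enzymes of serine synthesis Phgdh, Psat1 and Psph together with Nars, where 8.61% of all genes did so. None of the 9 beyond Vldlr and Ddit4 passed the test, and for Phgdh the log2 difference was -0.50 (adjusted p = 0.333 by limma).

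Other ATF4 targets in the same libraries changed in both directions. Of 23 in the table, 2 were higher and 4 lower with TRMs, and 2 higher and 5 lower with monocytes, beside the shares of all genes given above (10.2% and 8.15% with TRMs, 14.7% and 12.7% with monocytes). Leaving out alone replicate 2 gave 2 higher and 2 lower with TRMs, against 9.49% and 6.98% of all genes. With monocytes it gave 3 higher and 1 lower, against 13.9% and 11.5% of all genes. Mthfd1l, a mitochondrial folate enzyme, rose from 12.0, 36.0 and 12.8 CPM alone to 48.8, 83.0 and 71.3 CPM with TRMs, 3.73-fold (adjusted p = 0.0018 by limma), and 2.55-fold with monocytes (adjusted p = 0.00966 by limma). Bcat1, which transaminates branched-chain amino acids, rose 2.51-fold with TRMs (adjusted p = 0.0445 by limma) and 7.32-fold with monocytes (adjusted p = 0.000344 by limma), and without alone replicate 2 the rises were 4.01-fold and 11.7-fold. Atf3, a stress-induced repressor that acts after ATF4, was 1.94-fold lower with TRMs (adjusted p = 0.00593 by limma) and 2.28-fold lower with monocytes (adjusted p = 0.000994 by limma). The neutral amino acid transporter Slc1a5 was 1.94-fold lower with TRMs (adjusted p = 0.0123 by limma). Mthfd1l, Bcat1, Atf3 and Slc1a5 were still called in these comparisons without that library. Between the co-cultures, 0 of the 23 were called higher and 0 lower with all 9 libraries. Without alone replicate 2, 0 were higher and 2 lower with TRMs than with monocytes, against 0.479% and 0.308% of all genes. These were Bcat1, 2.91-fold lower (adjusted p = 0.0132 by limma), and Slc1a5, 1.96-fold lower (adjusted p = 0.0289 by limma).

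The lists of neighbouring pathways are read beside the same shares of all genes. In the eIF2 machinery 1 of 14 genes was higher with TRMs, Eif2b5 by 1.48-fold, and 4 were higher and 1 lower with monocytes, Eif2b5 by 1.59-fold and Eif2b1 by 1.49-fold, both subunits of the exchange factor that phosphorylated eIF2 blocks. Of 12 other cytosolic synthetase complex genes, 1 was higher with TRMs (Hars, 1.40-fold) and 3 with monocytes (Hars 1.74-fold, Kars 1.52-fold, Farsa 1.49-fold), and 0 were lower in either. Leaving out alone replicate 2 changed no count for these 2 lists. Of 17 mitochondrial synthetases, 1 was called against alone in each co-culture, Lars2 1.88-fold higher with TRMs and Tars2 1.38-fold higher with monocytes. Neither was called without alone replicate 2 (adjusted p = 0.0583 and 0.0861 by limma). The mean of Lars2 in alone replicates 1 and 3 was 9949 CPM, far above that of Tars2 at 77.3 CPM. Whether all reads at that level come from the synthetase mRNA was not tested. In the IRE1 and ATF6 arms, 2 of 15 were lower and 0 higher with TRMs, and 3 were lower and 4 higher with monocytes. When alone replicate 2 was left out, 1 was lower and 2 higher with TRMs, and 1 lower and 6 higher with monocytes, so the balance with TRMs turned. Herpud1, a component of the machinery that clears misfolded protein from the endoplasmic reticulum, was 2.19-fold lower with TRMs (adjusted p = 0.00131 by limma) and 2.51-fold lower with monocytes (adjusted p = 0.00029 by limma), and it was the gene still lower in both without that library (1.92-fold and 2.20-fold). Hsp90b1, a chaperone, was 1.45-fold higher with monocytes (adjusted p = 0.0121 by limma), and without that library it was called higher with TRMs as well (1.44-fold, adjusted p = 0.0259 by limma).

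The authors' deposited table of TRMs against alone called 2 members higher and 8 lower at its adjusted p under 0.05, and their table of monocytes against alone called 1 higher and 9 lower. All 6 and all 7 members called here were among them. The authors' deposited tables added Phgdh, Asns, Eprs and Tars with TRMs and Trib3, Asns and Tars with monocytes. Each of these had its highest value in alone replicate 2, as did 27 of the 34 members.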

How the data were processed

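Per the labels' protocols, 20000 to 170000 sorted GFP+ cells gave RNA, 1 ng of which was amplified with SMART-Seq v4 and sequenced on a NextSeq 500. STAR 2.5, edgeR and build mm10 appear in the submitters' processing notes, and neither counter nor annotation was given in the sources used. The deposited table holds normalized signal values, and testing them showed that each is a whole number of reads plus 0.5, divided by a scaled library size and multiplied by 1e6 (100% of values whole within 1e-06). The authors' 2 deposited comparison tables hold log2 fold changes, scores and p-values, and these were used only where named.

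Values were log2 transformed and fitted with limma 3.58.1 (R 4.3.3; trend, group means, all 9 libraries, 2-sided), after edgeR 4.0.16 filterByExpr on the recovered reads kept 12326 of 12339 genes. Adjusted p under 0.05 (Benjamini-Hochberg) made a call. The fit was tested on simulated data. Replicates differed beyond sampling noise (mean chi-square per gene 21.5 to 91.5, correlation of log2 values 0.909 to 0.974). Positions and exon lengths came from GENCODE M21 (GRCm38) and promoters from RefSeq (GRCm38.p6). The alternatives were edgeR's quasi-likelihood test and DESeq2 1.42.0 on the recovered reads (edgeR called 2183 genes with TRMs, 3255 with monocytes and 44 between them), scaling by library totals, other filters and pseudocounts, the replicate block, the compared groups alone, and leaving out each library.

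All members were described by role, with values per library for every member called, and from each of 5 comparison lists at most the 3 called genes with the smallest p per comparison. Members and lists were chosen with earlier results of these data known.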

Additional observations from a re-analysis of the deposited data

Results flagged for a closer look

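Vldlr and Ddit4 differed between the co-cultures in the direct test of TRMs against monocytes. The log2 difference was 1.19 for Vldlr and 0.71 for Ddit4, higher with TRMs in 3 of 3 libraries for both (adjusted p = 0.0241 and 0.0363 by limma).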

How the results depend on the processing

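With TRMs against alone, limma called 4 members lower, while DESeq2, scaling by library totals and the replicate block each called 7, and leaving out 1 library gave 4 to 8. With monocytes, the replicate block called 10 lower in place of 6, and leaving out 1 library gave 6 to 9 lower and 1 to 6 higher. Between the co-cultures, 1 member rather than 2 was higher when only those groups were fitted, and leaving out 1 library gave 0 to 2. The causes were not tested. Without alone replicate 2 the median log2 change of the members was 0.13 in place of -0.24 with TRMs and 0.01 in place of -0.31 with monocytes. All 6 calls with TRMs and all 7 with monocytes held in each of the 17 alternatives. The replicate block added calls for Asns, Eprs and Tars with TRMs (adjusted p = 0.0362, 0.0438 and 0.0317) and for Asns, Trib3, Ddit3 and Tars with monocytes (adjusted p = 0.0254, 0.0135, 0.0165 and 0.0235), all lower. The labels do not say that a number marks a shared culture or day. Over all genes, correlations of deviations between same-numbered libraries ran from -0.03 to 0.43, so not every pair was over 0.1. Between differently numbered libraries they ran from -0.40 to 0.27. The highest of these was alone replicate 2 with TRM replicate 3, beside 0.09 with TRM replicate 2. Whether the numbers mark a shared batch was not tested. The median SD of log2 CPM of the members alone was 0.54.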

Other observations

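The libraries numbered 2 were also the high ones outside the alone group for many members. For 14 of the 34 members (Atf5, Ddit3, Trib3, Chac1, Psph, Mthfd2, Asns, Pycr1, Aars, Iars, Lars, Nars, Tars and Yars) replicate 2 was the highest library in each of the 3 groups, against 3.98% of all genes, and the same held for 10 of 23 other ATF4 targets. Slc7a11, for example, was at 49.0, 133 and 49.2 CPM with TRMs and 56.7, 129 and 57.5 CPM with monocytes, beside 75.6, 434 and 88.1 CPM alone. The pattern was 4 of 15 genes for the IRE1 and ATF6 arms and 2 of 17 for the mitochondrial synthetases. Replicate 1 was highest in each group for 1 member (Ddit4) and replicate 3 for 0. The labels do not say whether a number marks a shared day or batch, and what the pattern comes from was not tested.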
